A study of Mus musculus with 75 samples.

Results

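Hoxb-E2 is one of the genomic viewpoints from which chromatin contacts were mapped by circular chromosome conformation capture (4C-seq) in mouse E14 embryonic stem cells, and its profile is described here across the receptor genotypes. The 8 libraries whose titles name Hoxb-E2 as the bait were taken, of 75 samples in the series. They fall into 4 groups of 2 libraries: cells lacking the retinoic acid receptor gene Rara (Rara-KO), cells lacking the retinoid X receptor gene Rxra (Rxra-KO), cells lacking both (RARX-DKO), and wild-type cells labelled WT (RARX) as their control. All 4 groups, the WT cells included, had LIF and the 2 kinase inhibitors of the growth medium (2i) withdrawn and had received 2 µM retinoic acid for 24 h. The study's design text calls the libraries of a group biological replicates. The sources used here do not say whether a knockout line is 1 clone or several, nor which part of Rara or Rxra is deleted. From the same genotypes and treatment, 8 libraries of a second viewpoint, Hoxb-E1, and 8 RNA-seq libraries were used for comparison.

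In 4C-seq, crosslinked chromatin is cut and religated, and the fragments ligated to the chosen viewpoint are amplified and counted, so that reads on a fragment report how often it lay near the viewpoint. Retinoic acid receptors bind DNA as heterodimers with retinoid X receptors, typically at direct repeats of a hexamer related to AGGTCA separated by 1, 2 or 5 bases. Retinoic acid switches on Hoxb genes, which encode homeodomain factors of the body axis. Their order along the cluster follows the order in which they are switched on, with Hoxb1, a hindbrain segment gene, at the early end and Hoxb13 at the late end. Skap1, the next gene beyond Hoxb1, encodes an adaptor protein of T-cell receptor signalling.

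The viewpoint lay inside Skap1, on the Hoxb1 side of its middle, with 216 kb to the start of Hoxb1, 387 kb to that of Hoxb13 and 117 kb to that of Skap1 itself. The labels give no coordinates, and the position was read from the deposited fragments (mm10). The 10-kb window with the most reads was chr11:96580001-96590000, and in it a stretch of 2360 bp, chr11:96580432-96582791, held 5 fragments without a read in any of the 8 libraries. In the 8 Hoxb-E1 libraries the same 5 fragments held 6324 to 108556 reads. The stretch overlaps an exon of a short Skap1 transcript at chr11:96581183-96582691, and the remaining bases are intronic. Skap1 (chr11:96464593-96759130) spans 295 kb and the Hoxb cluster, from Hoxb13 to Hoxb1 (chr11:96194316-96368256), spans 174 kb.

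Sequences of the viewpoint and of direct repeats in the cluster are given first as context for the positions described later, all from the plus strand of the GRCm38 (mm10) reference. The intronic end of the stretch, chr11:96582692-96582791, holds a direct repeat with a spacing of 2 bases on the minus strand at chr11:96582730-96582743, in capitals.
Hoxb-E2 stretch: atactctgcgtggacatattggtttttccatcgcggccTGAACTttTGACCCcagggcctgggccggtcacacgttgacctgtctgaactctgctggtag
The search covered repeats of the 4 hexamers AGGTCA and AGTTCA as well as GGGTCA and GGTTCA, on both strands, spaced by 1, 2 or 5 bases. Of 50314 windows of 2360 bp on chromosome 11, 5.46% held such a repeat, and 2.87% held one with a spacing of 2 bases. A match describes letters and is not a binding site.

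Within the Hoxb cluster and 10 kb on either side of it, the same search found 7 repeats, shown because direct repeats of this kind are what the receptors bind. None of them lies in an exon. The 5 inside the cluster correspond to 2.87 per 100 kb, against 2.45 per 100 kb of chromosome 11.
Repeat 1, chr11:96187480-96187516, between Ttll6 and Hoxb13: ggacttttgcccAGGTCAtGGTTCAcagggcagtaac
Repeat 2, chr11:96207913-96207949, between Hoxb13 and Hoxb9: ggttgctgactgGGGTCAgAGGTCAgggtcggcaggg
Repeat 3, chr11:96212017-96212057, between Hoxb13 and Hoxb9: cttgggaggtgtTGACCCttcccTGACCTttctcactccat
Repeat 4, chr11:96341224-96341264, in an intron of Hoxb3: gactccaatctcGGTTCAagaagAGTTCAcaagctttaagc
Repeat 5, chr11:96344834-96344870, in an intron of Hoxb3: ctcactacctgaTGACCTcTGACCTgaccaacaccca
Repeat 6, chr11:96359124-96359161, between Hoxb2 and Hoxb1: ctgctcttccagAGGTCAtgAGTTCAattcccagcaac
Repeat 7, chr11:96372764-96372804, between Hoxb1 and Skap1: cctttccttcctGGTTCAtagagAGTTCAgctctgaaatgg
Repeats 3, 4 and 7 have a spacing of 5 bases, repeat 6 one of 2 bases, and repeats 1, 2 and 5 one of 1 base. The Hoxb-E1 bait windows held none. The search took exact matches to the 4 hexamers only, so a repeat with any other hexamer was missed. The absence of a match therefore does not mean that a binding site is absent.

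The libraries held 21848502 and 7764849 reads in Rara-KO, 41773272 and 17612967 in Rxra-KO, 25871881 and 3398112 in RARX-DKO, and 42841488 and 16179918 in WT cells, and the second RARX-DKO library was the shallowest. Counting error was small, with at most 0.0887 percentage points on either side in the 95% Wilson interval of a region's share, but without molecular identifiers reads are not independent molecules and the interval covers counting error only. Of 323102 fragments with a read in any library, 58.3% had reads in 1 library only and 798 in all 8, and within 1 Mb of the viewpoint 641 of 4004 had reads in all 8. By calculation, thinning to 3398112 reads each would leave 26815 and 27013 fragments in Rara-KO and 33928 and 32436 in Rxra-KO. It would leave 31611 and 31415 in RARX-DKO, and 40592 and 39518 in WT cells. The calculation treats reads as independent draws, and by it the groups also differed in how many fragments they sampled. Neighbouring fragments were not independent, because 36.9% to 40.0% of adjacent pairs with over 100 reads carried counts within 5% of each other, against 3.89% to 6.63% of fragments 2 places apart. The share of reads on the Y chromosome was 0.0256% to 0.0341% in Rara-KO, 0.0678% to 0.100% in Rxra-KO, 0.0170% to 0.0316% in RARX-DKO and 0.232% to 0.317% in WT libraries, and in Hoxb-E1 libraries it was 0.0288% to 0.0783% in the knockouts and 0.162% to 0.179% in WT.

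The viewpoint's contacts were concentrated in its own gene and reached the Hoxb cluster in every genotype. After the bait windows (5 windows, chr11:96560001-96610000, all inside Skap1) were left out, Skap1 held 38.0% to 43.7% of the reads within 1 Mb, the intergenic stretch between Hoxb1 and Skap1 11.8% to 16.6%, and the Hoxb cluster 9.59% to 16.2%. Per 10 kb this came to a mean of 1.65% in Skap1, 1.46% in the intergenic stretch, 0.737% in the Hoxb cluster, 0.172% before the cluster and 0.266% beyond Skap1. The Hoxb cluster exceeded a stretch of the same length and distance on the other side of the viewpoint in 7 of 8 libraries, with ratios of 1.18 and 2.07 in Rara-KO, 1.38 and 1.17 in Rxra-KO, 0.830 and 1.29 in RARX-DKO, and 1.44 and 1.06 in WT cells. That ratio overlapped between each knockout and WT.

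**Figure D1:**
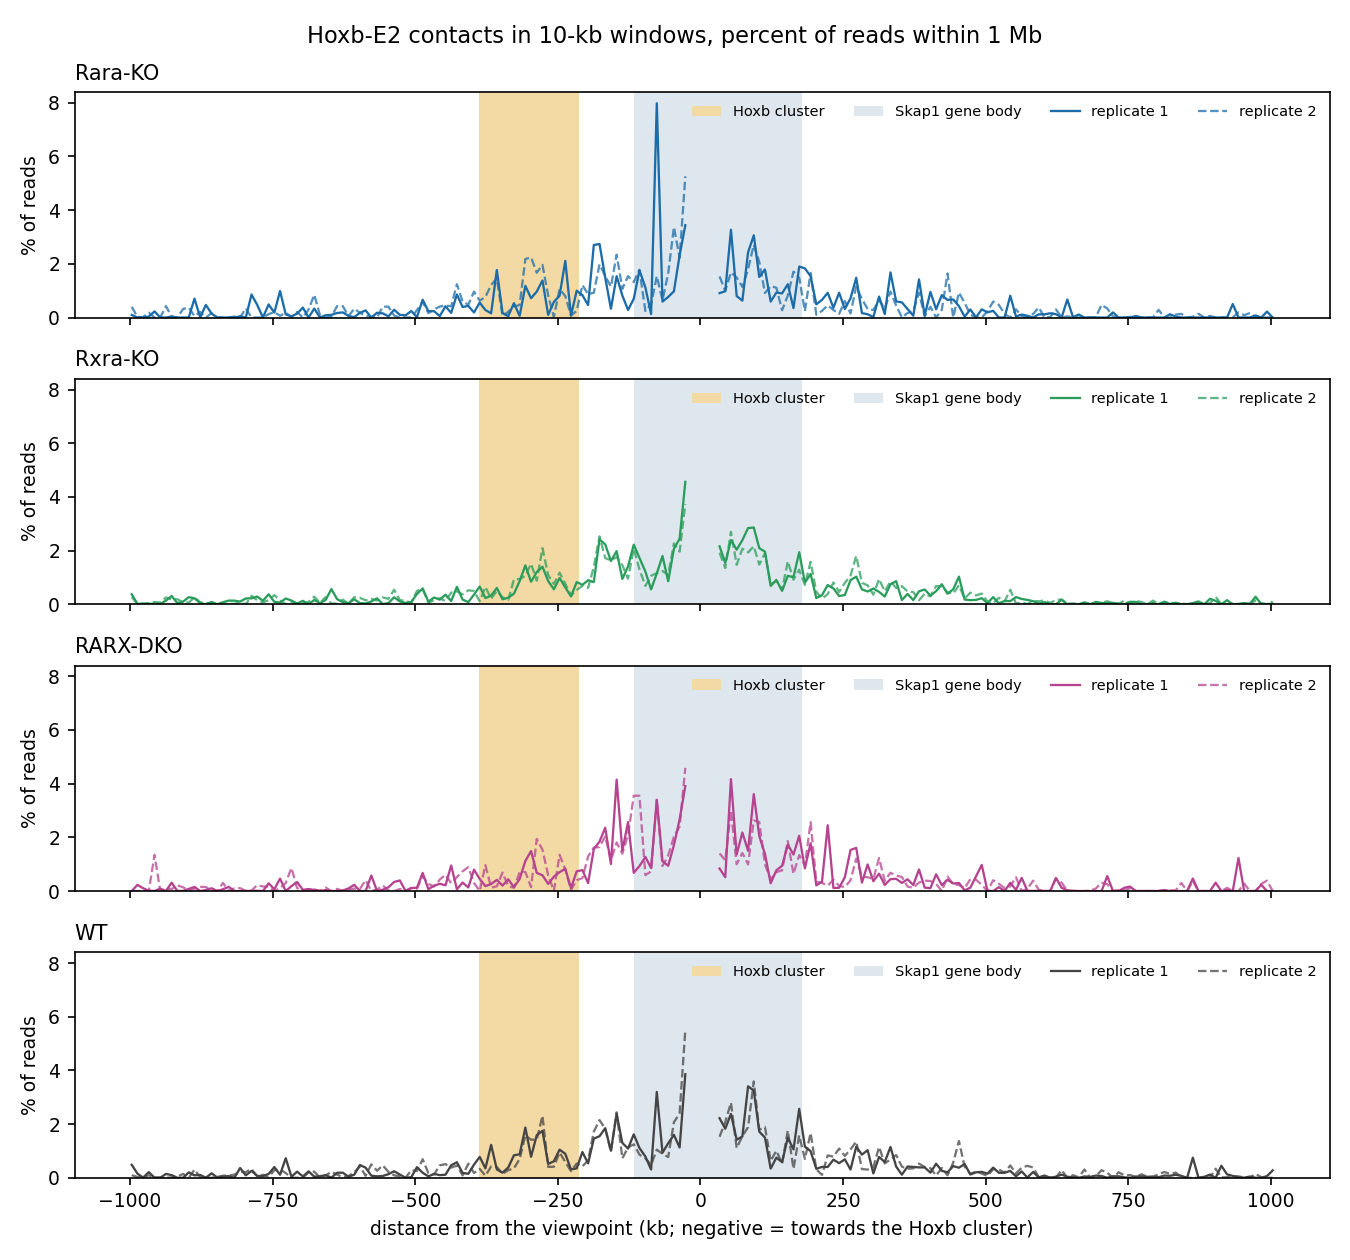
Contacts of Hoxb-E2 along 1 Mb on each side of the viewpoint, as percent of reads within 1 Mb (y axis) per 10-kb window (x axis, distance in kb, negative towards Hoxb), with 1 panel per genotype and 1 line per library. The bait windows are left blank, and the highest point is a window in Skap1 on its Hoxb side in replicate 1 of Rara-KO, at 7.98%.

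Of the 10 windows with the highest mean share over the 8 libraries, 8 lay in Skap1 and the others between Hoxb1 and Skap1. The highest, chr11:96550001-96560000 on the Hoxb side of the viewpoint, held 3.44% and 5.26% in Rara-KO, 4.56% and 3.73% in Rxra-KO, 3.91% and 4.59% in RARX-DKO, and 3.86% and 5.51% in WT cells. These values overlapped in all 4 groups. The next on the other side, chr11:96670001-96680000 at 93.4 kb, held 3.06% and 2.71% in Rara-KO, 2.86% and 2.16% in Rxra-KO, 3.61% and 2.63% in RARX-DKO, and 3.25% and 3.59% in WT cells. Both single-knockout groups lay below WT there. The window at chr11:96500001-96510000 shows how far 1 library can carry a mean, with 7.98% and 1.54% in Rara-KO, 1.15% and 1.16% in Rxra-KO, 3.40% and 3.39% in RARX-DKO, and 3.20% and 1.05% in WT cells. The 2 intergenic windows averaged 2.30% and 2.11% over the 8 libraries. The remaining 5 windows averaged 1.91% to 2.80%.

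All 10 fragments with the highest mean were on chromosome 11, with 7 in Skap1, 2 in the intergenic stretch 148 kb away and 1 in the Hoxb cluster. The highest, chr11:96665405-96667139, held 3092 and 2544 CPM (reads scaled to the library's total outside the bait windows) in Rara-KO, 3003 and 2351 in Rxra-KO, 972 and 857 in RARX-DKO, and 5155 and 1582 in WT cells. Both RARX-DKO libraries lay below both WT libraries at this fragment, and the RARX-DKO values were closer to each other than the WT values were. The shortest of the 10, and one of a run of adjoining high fragments 25 kb from the viewpoint, is printed with the GATC that bounds it in capitals.
High fragment in Skap1, chr11:96556221-96556257: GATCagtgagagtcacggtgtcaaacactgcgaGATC
The Hoxb fragment lay between Hoxb9, known for patterning the thoracic skeleton, and Hoxb8, known in mice for its part in grooming behaviour, at chr11:96276733-96277199. It held 2667 and 2174 CPM in Rara-KO, 2035 and 1781 in Rxra-KO, 1226 and 1897 in RARX-DKO, and 2201 and 2095 in WT cells. Both RARX-DKO and both Rxra-KO libraries lay below WT, and the Rara-KO values lay on either side of the higher WT value. Its first 300 bases, with the opening GATC in capitals, are as follows.
High fragment between Hoxb9 and Hoxb8, chr11:96276730-96277029: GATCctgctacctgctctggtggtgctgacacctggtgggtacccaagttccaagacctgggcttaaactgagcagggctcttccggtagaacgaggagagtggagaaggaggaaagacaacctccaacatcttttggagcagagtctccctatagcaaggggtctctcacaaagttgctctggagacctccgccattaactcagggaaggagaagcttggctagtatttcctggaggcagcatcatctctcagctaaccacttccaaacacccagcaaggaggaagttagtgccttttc

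The first comparison asked how much of the viewpoint's contact stayed on its own chromosome. Outside the bait windows the share of reads on chromosome 11 was 55.6% and 53.7% in Rara-KO, 66.8% and 66.3% in Rxra-KO, 53.0% and 55.1% in RARX-DKO, and 59.5% and 57.7% in WT cells. Rxra-KO lay above WT in both libraries, and Rara-KO and RARX-DKO lay below it in both. The differences from the WT mean were -3.94 percentage points in Rara-KO (54.7 ± 1.33 against 58.6 ± 1.32, SD, n = 2 each, exact permutation p = 0.333), 7.92 in Rxra-KO (66.5 ± 0.360, exact p = 0.333) and -4.54 in RARX-DKO (54.1 ± 1.52, exact p = 0.333). With 2 libraries against 2, a two-sided exact permutation test cannot go below 0.333, so none of the differences could pass 0.05.

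Most of the difference on chromosome 11 lay near the viewpoint. Within 1 Mb the share of all reads was 38.2% and 36.7% in Rara-KO, 49.3% and 49.6% in Rxra-KO, 37.6% and 38.3% in RARX-DKO, and 43.2% and 41.7% in WT cells. Between 1 and 5 Mb it was 4.41% to 5.88% over all libraries. Libraries of Hoxb-E1 placed 56.3% and 53.9% of their reads on the chromosome in Rara-KO, 65.6% and 64.2% in Rxra-KO, 54.6% and 54.7% in RARX-DKO, and 58.4% and 55.6% in WT cells. Rxra-KO was again above WT and RARX-DKO below it, while Rara-KO overlapped WT.

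The direction held for Rxra-KO but not for the other genotypes when fragments were weighed differently. The size did not hold in Rxra-KO. Its difference of 7.92 percentage points ran from 1.26 to 8.96 over all alternatives, and from 6.99 to 8.85 with 1 library left out. With distinct fragments counted in place of reads, the difference from WT was 2.57 percentage points in Rara-KO and 0.559 in RARX-DKO, both the other way. The number of fragments sampled and the share of reads on the Y chromosome moved with genotype in the same libraries, as given above, and their part in the result was not tested. The left-out bait windows held 9.76% and 8.45% of all reads in Rara-KO and 16.3% and 15.4% in Rxra-KO. In RARX-DKO these windows held 8.83% and 9.39%, and in WT cells 12.9% and 13.6%. The part of this share was not tested either.

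**Figure D2:**
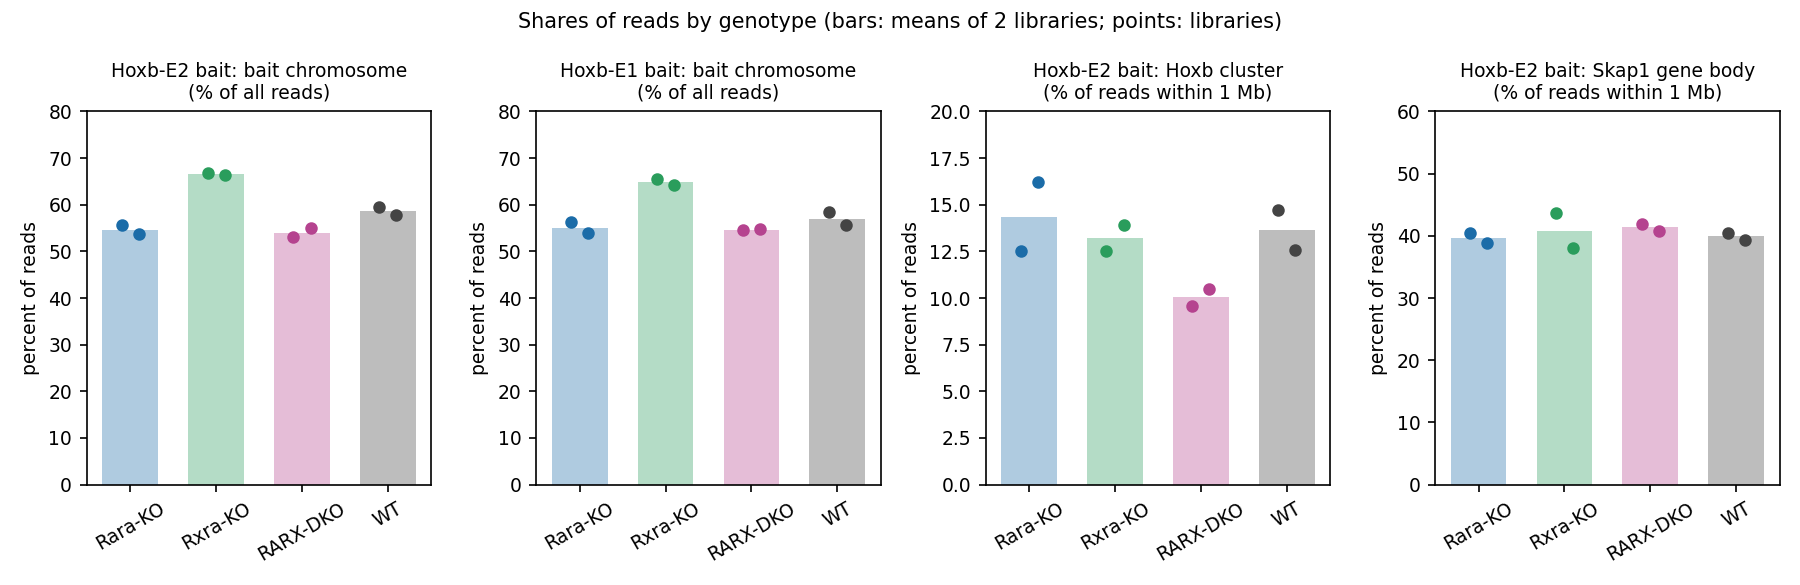
Shares of reads by genotype in percent (y axis), with bars for the mean of 2 libraries and points for the libraries. Rxra-KO stands highest on the bait chromosome for both baits (66.5% and 64.9% on average), and RARX-DKO lowest in the Hoxb cluster (10.0%).

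The second comparison asked whether the receptors change the contact with the Hoxb cluster. The cluster held 12.5% and 16.2% of the reads within 1 Mb in Rara-KO, 12.5% and 13.9% in Rxra-KO, 9.59% and 10.5% in RARX-DKO, and 14.7% and 12.6% in WT cells. The RARX-DKO libraries lay below both WT libraries, while those of each single knockout overlapped them. RARX-DKO averaged 10.0% ± 0.628 against 13.6% ± 1.50 in WT cells (SD, n = 2 each), a difference of -3.59 percentage points that was larger than either SD but could not pass the exact permutation test (p = 0.333). Rara-KO differed by 0.741 (exact p = 1.00) and Rxra-KO by -0.408 (exact p = 0.667), both less than the spread between replicates. Counted as distinct fragments, the RARX-DKO difference was 0.625, in the other direction, and fragments with reads in the cluster numbered 304 and 241 in Rara-KO, 360 and 348 in Rxra-KO, 275 and 174 in RARX-DKO, and 341 and 321 in WT cells, of 411 listed. Within 1 Mb, fragments with reads numbered 1854 and 1394 in RARX-DKO and 2741 and 2356 in WT cells. The part of sampling depth in the distinct-fragment shares, here and in the regions below, was not tested.

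Where the RARX-DKO share was low in the cluster, it was high in the stretch next to it. Between Hoxb1 and Skap1 the share was 11.8% and 13.2% in Rara-KO, 14.2% and 14.2% in Rxra-KO, 16.4% and 16.6% in RARX-DKO, and 13.4% and 12.9% in WT cells. Both RARX-DKO and both Rxra-KO libraries lay above WT, and the Rara-KO libraries overlapped it. By distance, 100 to 200 kb towards Hoxb held 18.5% ± 2.07 in RARX-DKO against 13.8% ± 0.133 in WT cells, and 200 to 400 kb held 11.2% ± 0.151 in RARX-DKO against 14.7% ± 2.12 in WT cells (SD, n = 2 each). These 2 bands and the intergenic stretch were described without a test.

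The Skap1 gene body, which surrounds the viewpoint, held 40.4% and 38.9% in Rara-KO, 43.7% and 38.0% in Rxra-KO, 41.9% and 40.8% in RARX-DKO, and 40.5% and 39.3% in WT cells. RARX-DKO was 1.47 percentage points above WT with no overlap (exact permutation p = 0.333), and the single knockouts overlapped WT, with differences of -0.274 in Rara-KO (exact p = 0.667) and 0.978 in Rxra-KO (exact p = 1.00). By distinct fragments the differences were 3.49 in Rara-KO, -0.938 in Rxra-KO and 7.83 in RARX-DKO, and with reads per fragment capped at the 95th percentile they were 5.68, -1.69 and 7.82. Of 575 fragments listed in Skap1, 494 and 454 had reads in RARX-DKO and 561 and 544 in WT cells.

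The windows of the Hoxb-E1 bait, which lies 271 kb away inside the cluster, held 3.74% and 6.72% in Rara-KO, 4.87% and 6.32% in Rxra-KO, 3.56% and 4.22% in RARX-DKO, and 5.26% and 5.96% in WT cells. RARX-DKO lay below WT in both libraries, by 1.72 percentage points on average (3.89 against 5.61, exact permutation p = 0.333), and by distinct fragments the difference was 0.722 in the other direction. Seen from Hoxb-E1, the windows of the Hoxb-E2 bait held 7.25% and 8.50% in Rara-KO, 6.69% and 6.74% in Rxra-KO, 6.33% and 9.39% in RARX-DKO, and 5.12% and 7.10% in WT cells, and RARX-DKO overlapped WT in that direction.

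At single gene starts, read within 5 kb on each side, Hoxb5 and Hoxb8 were the Hoxb genes with the strongest contact. Hoxb5, from the middle of the cluster, held 1.16% and 2.74% in Rara-KO, 1.55% and 1.82% in Rxra-KO, 0.724% and 2.78% in RARX-DKO, and 2.87% and 2.72% in WT cells. Both Rxra-KO libraries lay below WT, and the libraries of the other knockouts were too far apart to separate from it. Hoxb8 held 1.72% and 2.68% in Rara-KO, 1.25% and 1.56% in Rxra-KO, 0.636% and 0.795% in RARX-DKO, and 1.31% and 1.78% in WT cells. RARX-DKO was the lowest group at Hoxb8, with a log2 fold change of -1.11 (SE 0.51) that did not pass edgeR's quasi-likelihood test after Benjamini-Hochberg adjustment (adjusted p = 0.805), and 0.30 by distinct fragments. The region around the Hoxb8 start takes in the high fragment between Hoxb9 and Hoxb8 described above. The 10-kb window that holds the start, chr11:96280001-96290000, did not separate the groups. RARX-DKO held 1.49% and 0.146% there, against 0.786% and 1.42% in WT cells. Hoxb8 in Rara-KO had a log2 fold change of 0.51 (SE 0.51), and in Rxra-KO of -0.14 (SE 0.51).

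Hoxb7 and Hoxb9 came next, with means over the 8 libraries of 1.14% and 1.02%. Both were unstable between replicates, Hoxb7 at 1.46% and 0.0734% in RARX-DKO and Hoxb9 at 0.120% and 1.66% in Rara-KO. Hoxb6 was the steadiest, at 0.454% and 0.654% in Rara-KO, 0.667% and 0.626% in Rxra-KO, 0.675% and 0.532% in RARX-DKO, and 0.491% and 0.500% in WT cells. Hoxb2, Hoxb3, Hoxb4 and Hoxb13 averaged 0.483%, 0.418%, 0.423% and 0.446%, and the order among these 4 is within the spread of their libraries.

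Hoxb1, the Hoxb gene nearest the viewpoint, was not among the strongest contacts. Its start held 0.607% and 1.04% in Rara-KO, 0.664% and 0.487% in Rxra-KO, 0.600% and 0.412% in RARX-DKO, and 0.466% and 0.509% in WT cells. Only Rara-KO lay above WT in both libraries. The log2 fold changes of Hoxb1 were 0.76 (SE 0.63), 0.24 (SE 0.63) and 0.05 (SE 0.63) in Rara-KO, Rxra-KO and RARX-DKO, with adjusted p of 0.961, 0.996 and 0.975 by edgeR's quasi-likelihood test with Benjamini-Hochberg adjustment. By distinct fragments the Rxra-KO value was -0.05. The Skap1 start held 0.694% and 1.56% in Rara-KO, 2.07% and 2.11% in Rxra-KO, 0.734% and 3.79% in RARX-DKO, and 1.68% and 1.45% in WT cells, and its log2 fold changes were -0.47, 0.42 and 0.53 (SE 0.77 each).

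**Figure D3:**
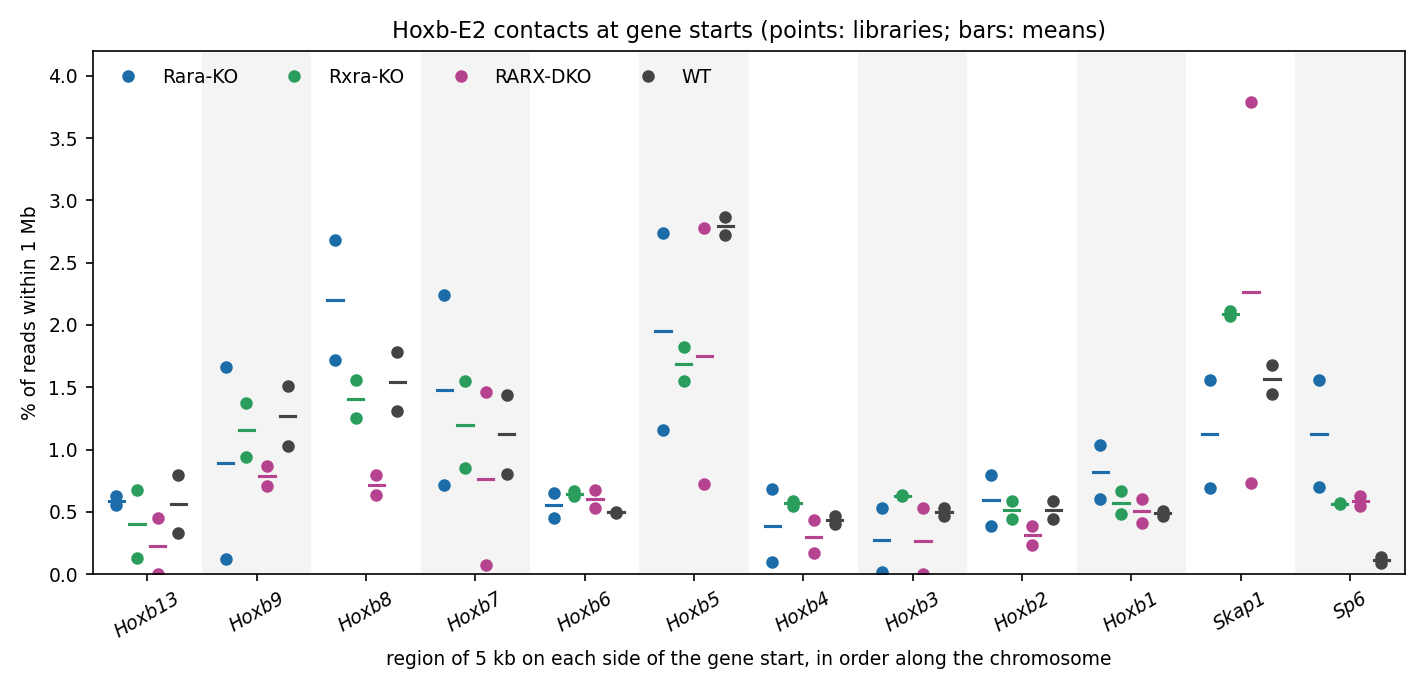
Contacts of Hoxb-E2 within 5 kb on each side of gene starts, as percent of reads within 1 Mb (y axis), for the 10 Hoxb genes, Skap1 and Sp6 in chromosome order (x axis). Points are libraries and bars are means of 2. At Hoxb8 the RARX-DKO points (0.636% and 0.795%) lie below WT, and at Sp6 all 6 knockout points lie above WT (0.0907% and 0.136%).

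Some neighbouring starts share reads because their regions overlap, as at Hoxb8 and Hoxb7 (starts chr11:96281905 and chr11:96286623). Starts are therefore not independent of each other. Across the 10 Hoxb starts, both Rara-KO libraries lay above WT at 1 and below at 0, both Rxra-KO libraries above at 3 and below at 1, and both RARX-DKO libraries above at 1 and below at 3. Over all 49 protein-coding gene starts within 1 Mb, the same happened at 8.16% above and 18.4% below in Rara-KO, 20.4% above and 8.16% below in Rxra-KO, and 6.12% above and 26.5% below in RARX-DKO, so the Hoxb counts stood near those of all starts. The median log2 fold change of the Hoxb starts was 0.11 in Rara-KO, 0.05 in Rxra-KO and -0.68 in RARX-DKO, beside -0.07, -0.02 and -0.67 for all 49 starts. With TMM scaling the RARX-DKO medians were -0.19 for Hoxb and -0.11 for all starts, and by distinct fragments 0.22 and 0.00. No start passed in any comparison (0 of 49, 0% called each, edgeR's quasi-likelihood test), with 2, 1 and 2 starts at an unadjusted p under 0.05 in Rara-KO, Rxra-KO and RARX-DKO. DESeq2 called 3, 1 and 1.

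Among the starts outside the cluster, Snx11, a sorting nexin gene just beyond Skap1, averaged 1.44% over the 8 libraries, Copz2, a coat protein gene, 1.15%, and Cdk5rap3 0.942%. At Cdk5rap3 the first Rara-KO library stood above the others, with 2.18% and 0.915% in Rara-KO against 0.958% and 0.558% in WT cells. At Igf2bp1, an RNA-binding protein gene on the far side of Hoxb, Rara-KO held 5.32e-05% and 0.000384% and WT 0.0791% and 0.501%, and its reads fell on 3 and 4 fragments in Rara-KO and on 5 and 5 in WT cells. The RARX-DKO replicates were also far apart there, at 0.579% and 0.000848%. In Rara-KO the log2 fold change was -10.40 (SE 3.46), which did not pass edgeR's quasi-likelihood test (adjusted p = 0.394).

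Sp6, a zinc-finger transcription factor gene of teeth and skin (chr11:97013394-97024734) 432 kb beyond the viewpoint, had the lowest adjusted p of all starts and is described here for that reason, chosen after its values were seen. Its start held 0.697% and 1.56% in Rara-KO, 0.568% and 0.562% in Rxra-KO, 0.626% and 0.544% in RARX-DKO, and 0.0907% and 0.136% in WT cells. All 6 knockout libraries lay above both WT libraries, which are the same 2 in each comparison. The fragments that carried these reads differed between replicates. In RARX-DKO, chr11:97018019-97018151 held 0.140% and 0%, while chr11:97010685-97012324 held 0.000666% and 0.154%. The log2 fold change was 3.31 in Rara-KO (SE 0.72, 95% interval 1.67 to 4.95, adjusted p = 0.0748), 2.32 in Rxra-KO (SE 0.69, adjusted p = 0.451) and 2.37 in RARX-DKO (SE 0.69, adjusted p = 0.409) by edgeR's quasi-likelihood test with Benjamini-Hochberg adjustment, and none passed 0.05. With TMM scaling Rara-KO passed (adjusted p = 0.0397), and with DESeq2 all 3 did (adjusted p = 5.68e-05, 0.0273 and 0.00222). The reads at Sp6 lay on 14 and 16 fragments in Rara-KO, 23 and 23 in Rxra-KO, 11 and 11 in RARX-DKO, and 27 and 12 in WT cells. By distinct fragments the log2 fold changes were -0.01, 0.16 and -0.17 in Rara-KO, Rxra-KO and RARX-DKO. Within 10 kb on each side they were 1.38, 0.13 and 0.13.

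Tests over all fragments and windows gave no call. Of 47917 fragments on all chromosomes, edgeR's quasi-likelihood test called 0 in each comparison (0% called), with 124, 32 and 136 at an unadjusted p under 0.05 in Rara-KO, Rxra-KO and RARX-DKO. DESeq2 called 13040, 15709 and 17248 of them, of which 89.5%, 80.9% and 93.3% had reads in 1 of the 4 libraries compared. Of 195 windows of 10 kb within 1 Mb, 0 were called in each comparison (0% called), with 10, 1 and 12 at an unadjusted p under 0.05 and 18, 3 and 10 by DESeq2. A test for any difference among the 4 genotypes also called 0 of 195 (0% called, edgeR), with 8 at an unadjusted p under 0.05. The median 95% interval of a window's log2 fold change reached 4.10 to 4.17 on either side, and in the 61 windows with a mean share of at least 0.5% it reached 1.27 to 1.28, with the narrowest at 0.74.

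Over windows, Spearman's rho was 0.616 to 0.837 between replicates (median 0.721), and the median between knockout and WT libraries was 0.708 for Rara-KO, 0.807 for Rxra-KO and 0.695 for RARX-DKO, given as a description. Both libraries of a knockout lay below both WT libraries at 24.6% of windows in Rara-KO, 15.4% in Rxra-KO and 28.2% in RARX-DKO, and above at 6.67%, 16.4% and 11.8%. The genotype effects at Hoxb-E2 were also set against those at Hoxb-E1 in 1 model over 16 libraries. The difference passed at 0 of 191 windows for each knockout (0% called, edgeR's quasi-likelihood test), with 10, 4 and 10 at an unadjusted p under 0.05 and 2, 2 and 11 by DESeq2.

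Near the direct repeats shown above, contact within 5 kb on each side was strongest at the 2 repeats in Hoxb3. Repeat 4 held 2.09% and 0.642% in Rara-KO, 0.659% and 0.839% in Rxra-KO, 0.950% and 1.04% in RARX-DKO, and 0.938% and 0.833% in WT cells. The genotypes other than Rara-KO stayed between 0.659% and 1.04%, and both RARX-DKO libraries lay above WT. Repeat 5, in an overlapping region, averaged 0.839% over the 8 libraries. Repeat 7, 7.02 kb from the Hoxb1 start, held 0.361% and 1.24% in Rara-KO, 0.616% and 0.427% in Rxra-KO, 0.680% and 0.261% in RARX-DKO, and 0.732% and 0.324% in WT cells, and the groups overlapped. The remaining 4 repeats averaged 0.323% to 0.550%. No test was made at the repeats.

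RNA of the same genotypes shows what the genes at the contacts did. The targeted genes were checked first. Rara stood at 5.34 and 4.36 CPM in Rara-KO, 99.1 and 83.0 in Rxra-KO, 5.55 and 6.51 in RARX-DKO, and 99.9 and 108 in WT cells, a log2 fold change of -4.42 in Rara-KO (adjusted p = 7.24e-08) and -4.11 in RARX-DKO (adjusted p = 1.58e-07, edgeR's quasi-likelihood test with Benjamini-Hochberg adjustment). Rxra stood at 42.1 and 48.5 CPM in Rara-KO, 18.3 and 16.1 in Rxra-KO, 13.6 and 27.5 in RARX-DKO, and 38.2 and 45.9 in WT cells. Its log2 fold change was -1.29 in Rxra-KO (adjusted p = 0.0264, edgeR) and -1.04 in RARX-DKO, where it missed the threshold (adjusted p = 0.0654, edgeR), so much Rxra RNA was still counted in the libraries labelled as its knockouts. In 4C, the Rara gene body on chromosome 11 held 23796 and 6 reads in Rara-KO, 15026 and 2040 in Rxra-KO, 5 and 0 in RARX-DKO, and 1150 and 39981 in WT cells, and the Rxra gene body held 0 in all 8 libraries, which is too sparse to check a deletion.

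Of the Hoxb genes, Hoxb6 and Hoxb9 fell in RNA in Rxra-KO and RARX-DKO cells and Hoxb1 fell in RARX-DKO cells. The RNA libraries held 7408691 to 13052102 counts. Of 16445 genes tested, 106 (0.645% called) passed in Rara-KO, with 64 higher (0.389%) and 42 lower (0.255%), 407 (2.47%) in Rxra-KO, with 210 higher (1.28%) and 197 lower (1.20%), and 368 (2.24%) in RARX-DKO, with 173 higher (1.05%) and 195 lower (1.19%), by edgeR's quasi-likelihood test with Benjamini-Hochberg adjustment. With 1 library left out the counts were 8 to 29 in Rara-KO, 21 to 361 in Rxra-KO and 32 to 408 in RARX-DKO, each lowest without replicate 2 of WT. Of the 10 Hoxb genes, 0 passed in Rara-KO, 2 fell in Rxra-KO and 3 fell in RARX-DKO, and their median log2 fold changes were -1.04, -1.50 and -1.85, beside -0.00, -0.01 and 0.01 for all genes. Differences between the knockouts were not tested. The strand setting of the RNA counting is not given in the sources used here, so reads of a Hoxb gene and of an antisense transcript over it cannot be told apart. In Rara-KO, Rxra-KO and RARX-DKO, 2, 7 and 9 of the 10 Hoxb genes had an unadjusted p under 0.05 (edgeR), and DESeq2 called 0, 1 and 1.

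Hoxb6 fell in Rxra-KO, to 1.17 and 1.90 CPM, and in RARX-DKO, to 0.113 and 2.85 CPM, against 13.8 and 16.5 CPM in WT cells (log2 fold changes -3.29 and -3.42, adjusted p = 0.0373 and 0.0362, edgeR). Hoxb9 fell in Rxra-KO, to 6.62 and 8.24 CPM, and in RARX-DKO, to 5.21 and 9.63 CPM, against 19.9 and 17.2 CPM in WT cells (-1.31 and -1.33, adjusted p = 0.0428 and 0.0440, edgeR). Hoxb1 fell in RARX-DKO, to 0 and 2.58 CPM against 16.5 and 16.5 CPM in WT cells (-3.75, adjusted p = 0.0423, edgeR).

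In every one of the 10 Hoxb genes the first RARX-DKO library was lower than the second. None of these 5 Hoxb calls held without either WT library (adjusted p 0.155 to 0.312, edgeR). With DESeq2 the 2 calls of Hoxb9 held and those of Hoxb6 and Hoxb1 did not (adjusted p 0.0685 to 0.134). Markers of extraembryonic endoderm summed to 33.1 to 43.2 CPM in Rara-KO, 120 to 133 in Rxra-KO, 20.4 to 25.6 in RARX-DKO and 82.8 to 86.1 in WT libraries, with all 5 markers present. The 8 stem cell markers summed to 4179 to 5085 CPM in the knockouts and 3330 to 3408 in WT libraries, and the 7 fibroblast markers, of which Col3a1 and Postn were at 0 in all libraries, to 15.6 to 21.7 CPM in Rara-KO, 34.5 to 35.5 in Rxra-KO, 20.5 in both RARX-DKO libraries and 21.2 to 23.8 in WT. The 4 trophectoderm markers summed to 4.70 to 6.75 CPM in Rara-KO, 5.19 to 12.2 in Rxra-KO, 3.06 to 4.34 in RARX-DKO and 8.35 to 9.56 in WT, and the 4 neuroectoderm markers to 14.1 to 18.2 CPM in Rara-KO, 19.9 to 27.8 in Rxra-KO, 18.4 to 35.4 in RARX-DKO and 19.9 to 20.5 in WT. None of the genes in these lists of 4 was at 0 in all libraries. Only 2 of the 4 trophectoderm, 3 of the 4 neuroectoderm and 3 of the 7 fibroblast markers were over 1 CPM. The part of these cell types in the Hoxb values was not tested, and in bulk RNA fewer expressing cells and less RNA per cell cannot be told apart.

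**Figure D4:**
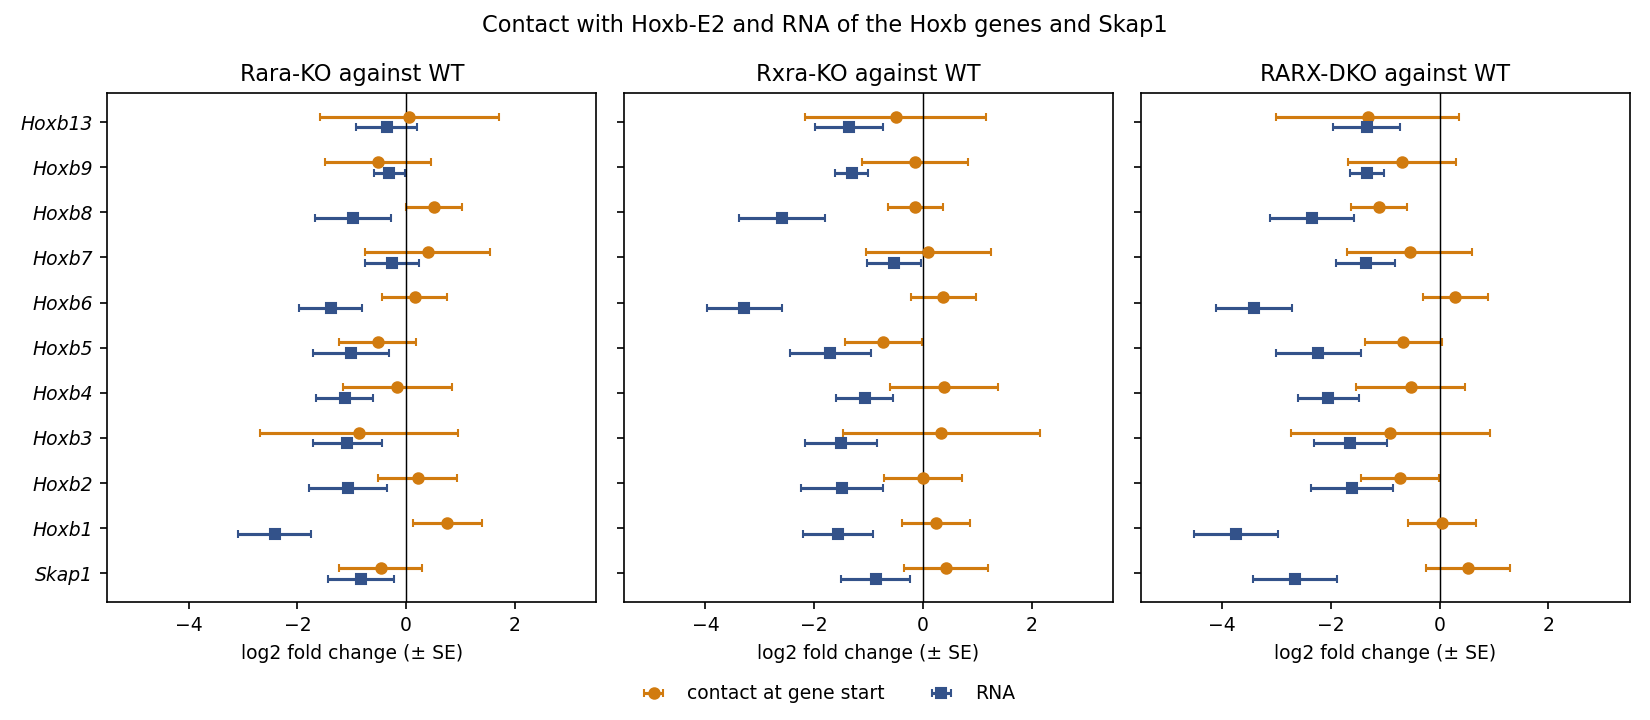
Log2 fold changes against WT (x axis, ± SE) of Hoxb-E2 contact at gene starts (circles) and of RNA (squares) for Skap1 and the Hoxb genes in chromosome order (y axis), with 1 panel per knockout. RNA lies left of 0 for all 11 genes in each knockout, while contact lies on either side of 0.

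At the genes with lower RNA, contact with the viewpoint can be read beside it. At Hoxb1, contact in RARX-DKO was 0.600% and 0.412% against 0.466% and 0.509% in WT cells, while its RNA was 0 and 2.58 CPM against 16.5 and 16.5 CPM. Hoxb6 contact was 0.667% and 0.626% in Rxra-KO and 0.675% and 0.532% in RARX-DKO, against 0.491% and 0.500% in WT cells. Both knockouts lay above WT in both libraries within 5 kb of the Hoxb6 start, while Hoxb6 RNA was lower. The 10-kb windows over the gene read otherwise. In chr11:96290001-96300000, shared with Hoxb7, Rxra-KO held 1.20% and 0.878% against 1.59% and 1.42% in WT cells, and RARX-DKO overlapped WT. In chr11:96300001-96310000, shared with Hoxb5, RARX-DKO held 0.589% and 1.54% against 1.75% and 2.31% in WT cells, and Rxra-KO overlapped WT. The contact log2 fold changes of Hoxb6 did not pass, at 0.38 in Rxra-KO (SE 0.60, adjusted p = 0.996, edgeR) and 0.29 in RARX-DKO (SE 0.60, adjusted p = 0.975, edgeR). Hoxb9 contact was 1.37% and 0.937% in Rxra-KO and 0.866% and 0.706% in RARX-DKO, against 1.51% and 1.03% in WT cells. At Hoxb9 both RARX-DKO libraries lay below WT in contact as in RNA, and the Rxra-KO libraries overlapped WT in contact. Its contact log2 fold change in RARX-DKO was -0.69 (SE 0.99, adjusted p = 0.975, edgeR). At Hoxb8 both RARX-DKO libraries lay below WT in contact within 5 kb of the start, but not in the 10-kb window that holds it. Hoxb8 RNA passed in no comparison, at 0.340 and 6.11 CPM in RARX-DKO against 15.7 and 16.0 CPM in WT cells (log2 fold change -2.35, adjusted p = 0.205, edgeR).

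The gene that hosts the viewpoint was barely transcribed. Skap1 stood at 0.641 and 1.20 CPM in Rara-KO, 0.649 and 1.14 in Rxra-KO, 0.113 and 0.407 in RARX-DKO, and 1.20 and 2.07 in WT cells, with a log2 fold change of -2.66 in RARX-DKO (adjusted p = 0.104, edgeR). Sp6 RNA was 3.42 and 9.91 CPM in Rara-KO, 3.25 and 8.49 in Rxra-KO, 9.63 and 6.92 in RARX-DKO, and 5.42 and 6.90 in WT cells, and no comparison passed (adjusted p 0.780 to 0.970, edgeR). Of the other 39 genes with a start within 1 Mb, 35 were tested, and 0, 1 and 0 passed in Rara-KO, Rxra-KO and RARX-DKO. The 1 that passed, named after its values were seen, was Zfp652, a zinc-finger gene, at 89.6 and 82.4 CPM in Rxra-KO against 56.4 and 57.1 CPM in WT cells (adjusted p = 0.0477, edgeR).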

How the data were processed

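The 4C-seq of Hoxb-E2 in mouse E14 cells was read as deposited, as a count of reads per restriction fragment in each of 8 libraries, and RNA-seq as deposited raw counts per gene. Per the submitters' processing notes the tools were MACS2 2.2.7.1, Bowtie2 2.3.1, DESeq2 1.18.1, HTSeq 0.9.1 and HISAT2 2.1.0 with mm10, without role or order. The enzymes and the program that made the fragment counts are not given in the sources used here. The deposited tables list only fragments with reads, and an unlisted fragment was taken as 0. The authors' q-value was not used. The members and gene lists were chosen with earlier results of these data known.

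The bait window of 10 kb and 2 windows on each side were left out. Reads per fragment, per 10-kb window within 1 Mb, and within 5 kb of protein-coding gene starts (GENCODE on mm10) with a mean of at least 10 reads were fitted over all 8 libraries in edgeR 4.0.16 (R 4.3.3) by the quasi-likelihood test with Benjamini-Hochberg adjustment at 0.05. The library size was the sum of reads within 1 Mb outside the bait windows, or over all chromosomes for fragments. Genes of the RNA table (52535 entries) passed filterByExpr at a minimum count of 10 and were scaled by TMM. Shares were compared by a two-sided exact permutation test (SciPy 1.17.1 in Python 3.11.15). Alternatives were DESeq2 1.42.0, other scalings, windows and ranges, reads per fragment capped at the 95th percentile, distinct fragments in place of reads, a replicate block, and each library left out. The 4C and RNA fits were checked on simulated data with a spread up to about that of windows and starts. Their common dispersion in edgeR was 1.79 and 1.81, against 11.3 for fragments, a spread the check did not cover. Named were the Hoxb genes, Skap1, Rara and Rxra, the other starts with the highest means or largest changes, and the 10 highest windows and fragments. Any other gene is named as picked once its values were known.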

Additional observations from a re-analysis of the deposited data

How the results depend on the processing

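No comparison of 4C fragments, windows or starts passed in the edgeR fit as reported, and most alternatives left these counts at 0. DESeq2 called 13040, 15709 and 17248 fragments in Rara-KO, Rxra-KO and RARX-DKO, 18, 3 and 10 windows, 3, 1 and 1 gene starts, and 2, 2 and 11 windows for the difference between baits. TMM scaling called 1 start in Rara-KO, 10 kb on each side called 2 in RARX-DKO, 5-kb windows called 1 in RARX-DKO, and the replicate block called 2 fragments in RARX-DKO. Leaving out 1 library gave 0 to 2 starts in Rara-KO, 0 to 2 in RARX-DKO, and 0 to 2 windows in RARX-DKO for the difference between baits, with the 2 calls in each case without replicate 1 of the knockout. RNA genes numbered 269, 654 and 582 by DESeq2, 551, 1084 and 981 with no filter on low counts, and 8 to 29, 21 to 361 and 32 to 408 when 1 library was left out, lowest without replicate 2 of WT.

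For the share on the bait chromosome, capped reads gave 3.23 percentage points in Rara-KO and 0.938 in RARX-DKO, and distinct fragments 2.57 and 0.559. In Rxra-KO the alternatives gave 1.26 to 8.96, and leaving out 1 library 6.99 to 8.85. For the Hoxb cluster, capped reads gave -0.446 in Rara-KO and 0.428 in Rxra-KO, and distinct fragments 0.163 in Rxra-KO and 0.625 in RARX-DKO. Leaving out 1 library gave -1.13 to 2.61 in Rara-KO and -1.47 to 0.656 in Rxra-KO. For Skap1, capped reads gave 5.68 in Rara-KO and -1.69 in Rxra-KO, distinct fragments 3.49 and -0.938, and leaving out 1 library -1.05 to 0.507 and -1.87 to 3.82. For the Hoxb-E1 bait windows, distinct fragments gave 0.451, 0.0400 and 0.722 in Rara-KO, Rxra-KO and RARX-DKO, capped reads 0.223 in Rxra-KO, and leaving out 1 library -1.86 to 1.11 in Rara-KO and -0.741 to 0.710 in Rxra-KO.

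Contact log2 fold changes turned as follows. With capped reads they were -0.26 at Hoxb8 and 0.15 at Skap1 in Rara-KO, 0.09 at Hoxb8, -0.16 at Hoxb1 and -0.04 at Skap1 in Rxra-KO, and -0.42 at Hoxb1 in RARX-DKO. With distinct fragments they were -0.28 at Hoxb8, 0.28 at Skap1 and -0.01 at Sp6 in Rara-KO, 0.01, -0.05 and -0.02 at Hoxb8, Hoxb1 and Skap1 in Rxra-KO, and 0.30 at Hoxb8 and -0.17 at Sp6 in RARX-DKO. With 10 kb on each side they were 0.01 at Skap1 in Rara-KO and -0.00 at Hoxb1 in RARX-DKO. Scaled to all reads they were 0.09 at Hoxb8 in Rxra-KO and -0.11 at Hoxb1 in RARX-DKO. Leaving out 1 library gave -0.34 to 0.10 at Hoxb8 and -0.00 to 0.45 at Hoxb1 in Rxra-KO, and -0.24 to 0.30 at Hoxb1 and -1.09 to 1.27 at Skap1 in RARX-DKO. For RNA in Rara-KO it gave -1.31 to 0.21 at Hoxb13 and -0.01 to 0.25 at Rxra. The cause of these changes was not tested.

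Replicate numbers did not pair the samples: same-numbered libraries deviated with correlations of -0.096 to 0.051 over windows and -0.213 to 0.120 over RNA genes, and with the replicate block 86, 314 and 296 RNA genes passed in Rara-KO, Rxra-KO and RARX-DKO. With 2 libraries a group, 95% intervals of the windows' log2 fold changes reached at least 0.74 on either side, and no permutation test of a share could pass 0.05.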
